A study of Rattus norvegicus with 43 samples.

Results

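The genes described here encode subunits of the oxidative phosphorylation complexes of rat mitochondria, with a few assembly factors and relatives that carry the same name stems. Members were the probe sets whose platform annotation gave 1 gene symbol beginning with Nduf, Sdh, Uqcr, Cox4, Cox5, Cox6, Cox7, Cox8 or Atp5. This gave 55 genes of the 4736 that the array names through a probe set with 1 symbol, and each gene was represented by its probe set of highest mean signal. Of these genes, 49 encode structural subunits: 24 of complex I, 1 of complex II (Sdha), 3 of complex III, 12 of complex IV and 9 of complex V. The other 6 are the assembly factors Ndufaf3 and Sdhaf2, the ATP synthase inhibitor Atp5if1, the supercomplex factor Cox7a2l, the Ndufa4 paralogue Ndufa4l2 and the pseudogene Cox6c-ps1.

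The study measured RNA of 3 normal organs, namely mammary gland, lung and liver, from female Sprague-Dawley rats on 43 Affymetrix arrays in 12 groups. From 100 days of age, rats were given a retinoid for 7 days or diet alone. Targretin (bexarotene, which binds the retinoid X receptors, RXR) was given by gavage at 60 mg/kg body weight. The ligand 9-cis retinoic acid (9cRA) was given at 100 mg/kg diet, and 4-hydroxyphenylretinamide (4HPR, fenretinide) at 782 mg/kg diet. The control rats ate diet alone, and a gavage control is not named in the labels. Each group had 4 arrays, except the 3 Targretin groups, the diet lung group and the 4HPR mammary group, which had 3. The labels do not say that the arrays are separate animals, so p-values measure the spread between these arrays. Signals are MAS5 intensities on a linear scale. Differences are in log2 of the signal plus 38.1, with their standard errors (SE), and a gene passed where limma's Benjamini-Hochberg adjusted p over all probe sets tested was under 0.05.

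Oxidative phosphorylation passes electrons from NADH through complex I, or from succinate through complex II, to complex III and then to oxygen at complex IV. Complexes I, III and IV pump protons out of the mitochondrial matrix, and the return of these protons drives ATP synthesis by complex V. All the subunits described here are encoded in the nucleus, and cytochrome oxidase (complex IV) has subunits with isoforms known from muscle, lung or most other tissues. The nuclear factors NRF1, the ETS proteins NRF2/GABP and YY1 are known regulators of many of these genes.

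The promoters of 4 members are shown, chosen after the motif matches were seen. Sdha, Atp5po and Ndufa6 are those of the 10 genes that fell in mammary gland of Targretin rats whose promoter held a match, and Atp5f1d is the gene that rose. The other 7 genes that fell (Cox4i1, Cox7b, Ndufab1, Ndufb1, Ndufb11, Ndufb3 and Uqcrc2) held no NRF1, ETS or YY1 match in this window. Each window of 300 bases runs from 250 before to 50 after the gene's start in RefSeq (build GRCr8), 5′ to 3′ along the gene's strand. The positions are chr1:30764303-30764602 on the plus strand for Sdha, chr11:44657434-44657733 on the minus strand for Atp5po, chr7:115750268-115750567 on the minus strand for Ndufa6 and chr7:10214301-10214600 on the minus strand for Atp5f1d. Capitals mark the letters of an NRF1 motif (GCGCNNGCGC, which reads the same on both strands) or a YY1 motif (AAGATGGC, searched on both strands).
Sdha: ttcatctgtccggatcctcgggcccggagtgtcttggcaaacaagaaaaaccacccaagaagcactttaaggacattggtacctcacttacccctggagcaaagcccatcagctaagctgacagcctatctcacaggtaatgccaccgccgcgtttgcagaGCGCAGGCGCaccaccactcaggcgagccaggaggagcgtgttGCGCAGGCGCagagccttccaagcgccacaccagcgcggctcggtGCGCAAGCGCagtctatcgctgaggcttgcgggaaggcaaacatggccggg
Atp5po: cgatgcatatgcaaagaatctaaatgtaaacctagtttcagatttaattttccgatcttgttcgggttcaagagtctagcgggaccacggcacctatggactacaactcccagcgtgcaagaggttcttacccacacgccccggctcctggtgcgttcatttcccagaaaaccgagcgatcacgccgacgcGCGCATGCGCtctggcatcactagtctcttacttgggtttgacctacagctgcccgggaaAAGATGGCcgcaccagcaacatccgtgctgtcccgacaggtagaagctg
Ndufa6: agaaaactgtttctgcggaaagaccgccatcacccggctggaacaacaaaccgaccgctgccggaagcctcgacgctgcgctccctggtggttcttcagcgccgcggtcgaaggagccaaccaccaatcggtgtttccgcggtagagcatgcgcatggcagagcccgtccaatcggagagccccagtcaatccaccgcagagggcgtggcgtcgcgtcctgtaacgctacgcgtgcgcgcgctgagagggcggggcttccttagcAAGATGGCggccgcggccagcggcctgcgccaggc
Atp5f1d: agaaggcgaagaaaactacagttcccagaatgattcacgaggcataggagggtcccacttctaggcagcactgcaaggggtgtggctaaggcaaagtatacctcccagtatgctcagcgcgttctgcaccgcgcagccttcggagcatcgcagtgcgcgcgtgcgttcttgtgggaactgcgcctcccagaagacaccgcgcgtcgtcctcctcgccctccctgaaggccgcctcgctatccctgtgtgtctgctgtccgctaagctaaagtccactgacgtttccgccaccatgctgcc
The Sdha window holds 3 NRF1 matches, the Atp5po window 1 NRF1 and 1 YY1 match, the Ndufa6 window 1 YY1 match, and the Atp5f1d window none. Of the 47 members with a promoter in the RefSeq table, 7 (14.9%) held the NRF1 letters, against 8.0% of all 19005 promoters of protein-coding genes. The YY1 letters were in 11 of 47 (23.4%, against 3.9%) and the ETS letters CCGGAAGT in 4 (8.5%, against 5.0%). The SP1 letters GGGGCGGGG were in 2 (4.3%, against 13.3%) and TATAAA in 2 (4.3%, against 13.1%). No member had overlapping matches of different motifs. Of the 10 members that fell with Targretin in mammary gland, 3 held an NRF1, ETS or YY1 match, compared with 19 of the 47. A match is a run of letters in this window and no measurement of binding.

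Several measures of the arrays differed between organs or stood apart in single arrays. Agent comparisons they touch were refitted with a ratio or the hepatocyte sum as a covariate, or without single arrays. The organ comparisons were not fitted with these measures as covariates. The control probe sets for the 3′ and 5′ ends of GAPDH, a measure of RNA integrity and labelling, had a 3′/5′ ratio of 2.45 to 4.12 in mammary gland, against 0.963 to 2.27 in liver and 0.867 to 2.54 in lung. The ratios of 4HPR liver replicate 4 (beta-actin 2.96) and Targretin lung replicate 2 (beta-actin 5.46) were far above those of their groups. Signals of 12 hepatocyte markers summed to 545490 to 647100 in diet liver, but also to 72210 to 119070 in diet mammary gland, and to 4295 to 28664 in Targretin mammary gland. Signals of muscle markers summed to 86416 in Targretin mammary replicate 3 and to 5203 to 8219 on the other mammary arrays. The labelled organs carried their own markers: the lung epithelial sum was 245860 to 464420 in lung and at most 20772 elsewhere, and the mammary epithelial sum was 111540 to 529080 in mammary gland and at most 35501 elsewhere. In such bulk samples, fewer cells of a type and less RNA per cell cannot be told apart.

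**Figure D1:**
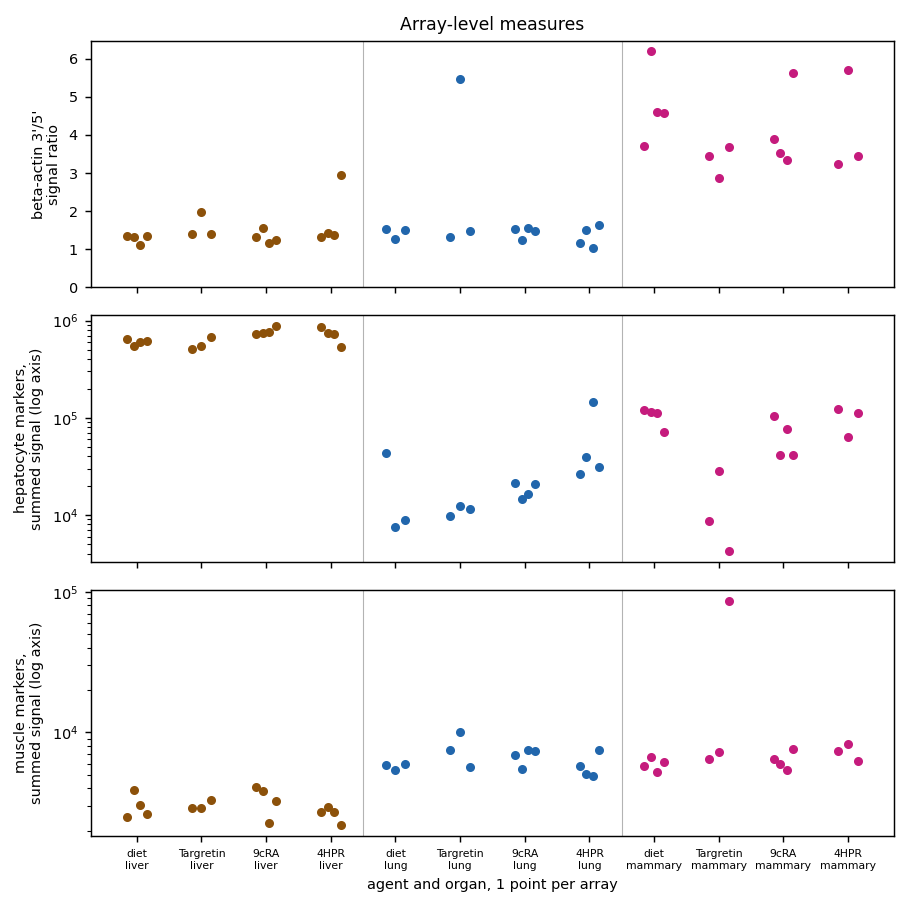
Beta-actin 3′/5′ ratio, summed hepatocyte marker signal and summed muscle marker signal (log axes) of each array, by organ and agent; each point is 1 array. Mammary arrays lie above most liver and lung arrays in the actin ratio, the hepatocyte sum of Targretin mammary arrays (4295 to 28664) lies below that of diet mammary arrays (72210 to 119070), and 1 Targretin mammary array has a muscle sum of 86416.

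In rats on diet alone, most oxidative phosphorylation genes had their highest signal in mammary gland. Of the 55 genes, 34 were higher and 6 lower in mammary gland than in lung, where 44.8% of all probe sets tested passed (16.8% higher, 28% lower). Against liver, 30 were higher and 9 lower, where 59.5% of probe sets passed (34.1% higher, 25.4% lower). Liver and lung differed less in these genes: 15 were higher and 8 lower in liver, against 55.4% of probe sets (16.6% higher, 38.8% lower). The median difference over the members was 0.73 for mammary gland minus lung (all probe sets tested, -0.19), 0.61 for mammary gland minus liver (0.07) and 0.15 for liver minus lung (-0.37). Mammary gland passed above both other organs for 24 members and below both for 4, liver above both for 5 and below both for 6, and lung above both for 2 and below both for 12. The shares of all probe sets with these patterns were not computed, so these counts only describe the members. For 6 members no pair of organs passed (Cox6c, Cox6c-ps1, Ndufb9, Ndufs7, Ndufs8 and Sdhaf2).

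Quantile normalization, which forces 1 distribution on all arrays, moved the median of all probe sets by 0.299 for liver minus lung and by 0.212 for mammary gland minus lung, and gave 13 higher and 9 lower members, and 31 higher and 4 lower. For liver minus lung it lost Cox7b, Ndufa4, Ndufa4l2, Ndufaf3, Ndufs6 and Ndufv2, and added Atp5f1e, Cox5a, Cox6a1, Ndufa9 and Ndufb8. For mammary gland minus lung it lost Atp5f1e, Atp5pd, Cox6b1, Cox8b and Ndufs1. For mammary gland minus liver it lost Atp5f1a, Ndufaf3 and Ndufc1, and added Atp5f1c and Atp5pb. The 3′/5′ ratios also set mammary gland apart from the other organs, and their part in the organ differences was not tested. A fit of the compared diet groups alone lost Atp5if1, Ndufa9, Ndufb1, Ndufs1 and Ndufv2 for mammary gland minus lung. For mammary gland minus liver that fit lost Ndufa5 and Ndufc1. Some organ differences named below lost their call when 1 diet array was left out. For mammary gland minus lung these were Ndufs1 (without diet lung replicate 2 or 4 or mammary replicate 2, adjusted p up to 0.321), Ndufv2 (lung replicate 2 or mammary replicate 2 or 3, up to 0.231) and Cox8b (lung replicate 3 or 4, up to 0.0617). For mammary gland minus liver they were Uqcrfs1 (mammary replicate 1, 0.0512), Cox6a2 (liver replicate 1, 2 or 3 or mammary replicate 2, 3 or 4, up to 0.107) and Atp5f1a (every mammary array and liver replicate 1, 3 or 4, up to 0.105). For liver minus lung it was Ndufa4l2 (replicate 2 or 4 of either organ, up to 0.102).

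**Figure D2:**
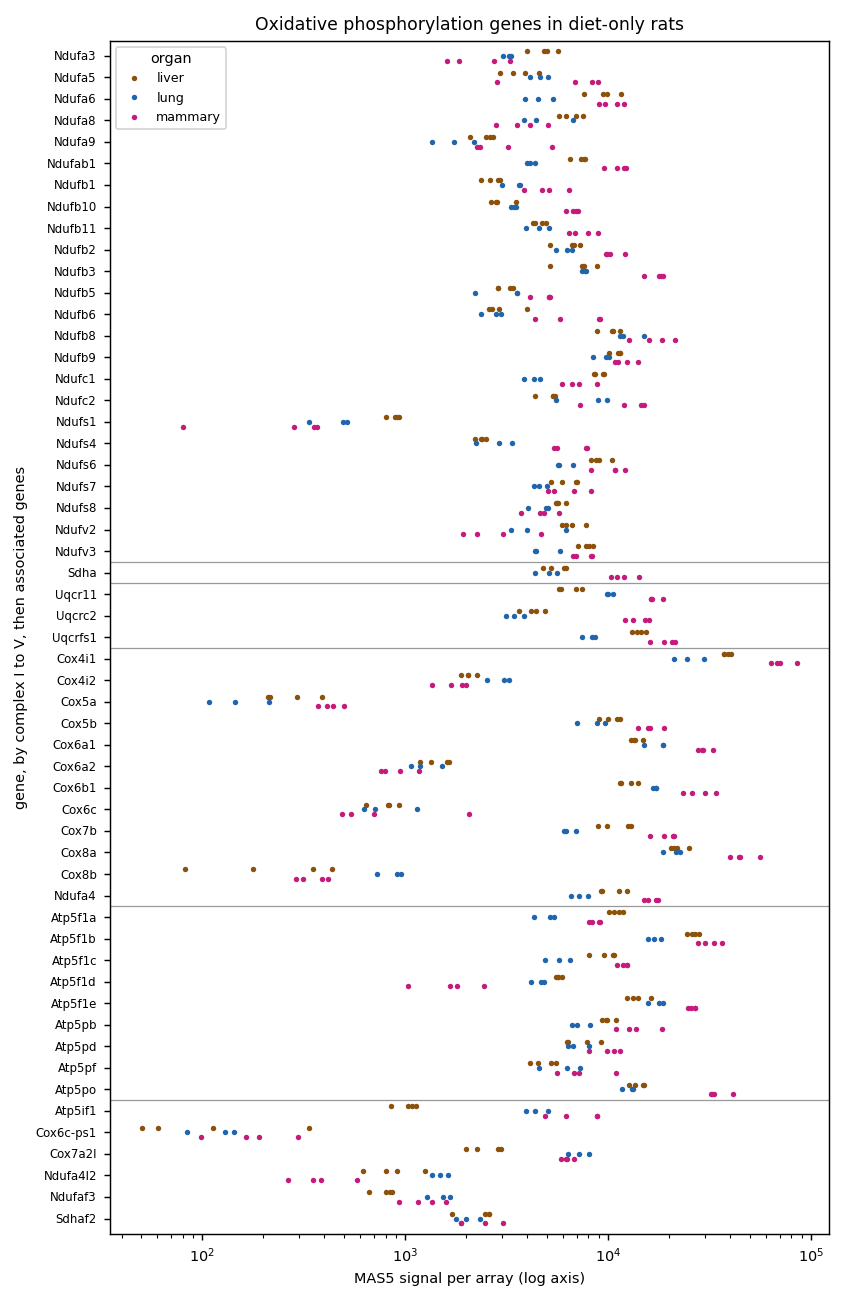
Signal (log axis) of the 55 genes in liver, lung and mammary gland of diet rats, grouped by complex; each point is 1 array. For 39 genes the highest organ mean was in mammary gland, for 11 in liver and for 5 in lung; signals are compared within a gene only, since each probe set has its own response.

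Among the 24 complex I genes, 14 passed as higher and 2 as lower in mammary gland than in lung, with a median difference of 0.66. Ndufab1, the mitochondrial acyl carrier protein that is also a complex I subunit, read 12262, 11091, 11910.4 and 9587 in diet mammary gland, 4097, 4337 and 4002 in lung and 7374, 7619, 7663 and 6467 in liver. Every mammary array lay above every lung and liver array, by 1.42 ± 0.20 over lung (adjusted p = 5.14e-07) and 0.62 ± 0.19 over liver (adjusted p = 0.00519). Ndufs4, an accessory subunit needed for a stable NADH-oxidising module, was higher in mammary gland than in liver by 1.46 ± 0.21 (adjusted p = 1.51e-07). Ndufb6, an accessory subunit of the membrane arm, was higher than in lung by 1.31 ± 0.34 (adjusted p = 0.00153). Ndufs1 and Ndufv2, iron-sulfur subunits of the NADH-oxidising module, went the other way. Ndufs1 read 368, 80.1, 354 and 284 in mammary gland, 496, 335 and 516 in lung and 910.1, 802, 936 and 894 in liver, so liver was the highest organ with no overlap. Its difference was -1.73 ± 0.30 for mammary gland minus liver (adjusted p = 4.20e-06) and -0.78 ± 0.32 for mammary gland minus lung (adjusted p = 0.0444). Ndufv2 differed by -1.22 ± 0.21 (adjusted p = 4.18e-06) and -0.63 ± 0.23 (adjusted p = 0.0221) in the same 2 comparisons.

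Other complex I genes were higher in liver than in lung. Ndufc1, a small membrane-arm subunit, differed by 1.08 ± 0.17 (adjusted p = 5.80e-07) and Ndufa6, an accessory subunit that binds the acyl carrier protein, by 1.06 ± 0.21 (adjusted p = 4.67e-05). Ndufa3 and Ndufa8, accessory subunits, were lower in mammary gland than in liver, with differences of -1.08 ± 0.20 (adjusted p = 1.14e-05) and -0.78 ± 0.20 (adjusted p = 7.72e-04). The complex I genes of highest mean signal were Ndufb8 and Ndufb9. Ndufb8 was higher in mammary gland than in liver by 0.71 ± 0.19 (adjusted p = 0.00131), and Ndufb9 passed in no pair of organs, with differences of 0.36 ± 0.18 from lung and 0.13 ± 0.16 from liver.

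Complex II is represented by Sdha alone, the flavoprotein that oxidises succinate. Its signals were 10290.2, 14269, 12006 and 11014 in diet mammary gland, 6025, 4780.4, 5220.4 and 6208 in liver and 4369.7, 5589.7 and 5099 in lung. The mammary arrays lay above all others, by 1.23 ± 0.19 over lung (adjusted p = 1.25e-06) and 1.09 ± 0.17 over liver (adjusted p = 1.05e-06), while the liver and lung arrays overlapped (difference 0.15 ± 0.19, adjusted p = 0.542).

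All 3 complex III genes were higher in mammary gland than in both other organs. Uqcrc2, a core protein of the complex, read 15900.5, 13278, 15165 and 12057 in mammary gland, 4149, 4873, 4412 and 3651 in liver and 3847, 3423 and 3150.5 in lung. Its difference of 2.01 ± 0.26 from lung (adjusted p = 7.69e-08) was the largest of any member in that comparison, and the difference from liver was 1.71 ± 0.24 (adjusted p = 1.09e-07). Uqcr11, a small accessory subunit, was lower in liver than in lung (-0.66 ± 0.23, adjusted p = 0.0135) and higher in mammary gland than in liver by 1.38 ± 0.21 (adjusted p = 4.90e-07). Uqcrfs1, the Rieske iron-sulfur protein, was in the order mammary gland, liver, lung, with each step passing: 0.43 ± 0.15 for mammary gland minus liver (adjusted p = 0.0156) and 0.81 ± 0.17 for liver minus lung (adjusted p = 7.73e-05).

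The isoforms of cytochrome oxidase did not share an order of organs. Cox4i1, the broadly expressed isoform of subunit IV, read 84924, 63551, 70196 and 68276 in mammary gland, 39081, 37233, 40384 and 37191 in liver and 24428, 21066 and 29712 in lung, with no overlap and a difference of 1.52 ± 0.23 between mammary gland and lung (adjusted p = 1.44e-06). Cox4i2, the isoform known from lung, read 2540.5, 3054 and 3246 in lung, 1882, 2035, 2256 and 2034 in liver and 1894, 1356, 1984 and 1684 in mammary gland. Lung was the highest organ for Cox4i2 on every array. Mammary gland minus lung passed (-0.76 ± 0.25, adjusted p = 0.0108), while liver minus lung did not (-0.51 ± 0.25, adjusted p = 0.0763). Mammary gland and liver overlapped for this isoform.

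For subunit VIa, the broadly expressed Cox6a1 read 32997, 28983, 27789 and 29414 in mammary gland, 13390.2, 12986, 14843 and 13526 in liver and 18571, 14979.9 and 18566 in lung, higher in mammary gland by 1.12 ± 0.18 than in liver (adjusted p = 1.68e-06) and by 0.78 ± 0.20 than in lung (adjusted p = 0.00134). Cox6a2, the heart and skeletal muscle isoform, read 1170.1, 794, 757 and 941 in mammary gland, 1333, 1601, 1636 and 1181 in liver and 1523, 1181 and 1069 in lung, with every mammary array below every liver array and lung overlapping both. It was lower in mammary gland than in liver (-0.64 ± 0.27, adjusted p = 0.0413), and did not pass against lung (-0.45 ± 0.29, adjusted p = 0.22). The other Cox6a2 probe sets had mean signals of only 239 and 26.5, against 1314 for the probe set used. The levels and the order of organs given for Cox6a2 are those of the latter alone.

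For subunit VIII, Cox8a, the broadly expressed isoform, read 56256, 44398, 39966 and 44008 in mammary gland, 20360.4, 21047, 25044 and 21803 in liver and 22508, 18572 and 21690.4 in lung, with mammary gland above lung by 1.13 ± 0.19 (adjusted p = 6.44e-06) and liver and lung overlapping. Cox8b, known from muscle and brown fat, read 727, 908 and 948 in lung, 389, 414, 289 and 313 in mammary gland and 434, 351, 82.6 and 178 in liver. Its lung arrays were the highest, with liver minus lung at -1.77 ± 0.42 (adjusted p = 5.17e-04) and mammary gland minus lung at -1.21 ± 0.42 (adjusted p = 0.0189). Cox7b, a small subunit, was higher in mammary gland than in lung by 1.57 ± 0.23 (adjusted p = 9.58e-07), and Cox6b1, on the intermembrane side of the complex, by 1.17 ± 0.17 over liver (adjusted p = 3.03e-07). Cox7a2l, which joins complexes III and IV into supercomplexes, was low in liver: 2867, 2261, 2954 and 1993, against 8026, 6349 and 7178 in lung and 6762, 6260.5, 5830.5 and 6183 in mammary gland. The liver arrays did not overlap with the others (liver minus lung -1.51 ± 0.23, adjusted p = 5.66e-07), and a second probe set gave -1.55.

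The subunits of ATP synthase (complex V) were split. Atp5f1a, the alpha subunit of the catalytic head, read 11281, 10117, 10669 and 11824 in liver, 8027, 9065, 8338 and 8996 in mammary gland and 4329.5, 5166 and 5429.5 in lung. Liver was above lung by 1.14 ± 0.16 (adjusted p = 1.51e-07) and mammary gland was below liver (-0.35 ± 0.15, adjusted p = 0.0447), each without overlap. Atp5f1b, the catalytic beta subunit, was also lowest in lung (liver minus lung 0.64 ± 0.13, adjusted p = 5.79e-05), while mammary gland minus liver did not pass (0.27 ± 0.12, adjusted p = 0.055). Atp5po, a peripheral stalk subunit, was higher in mammary gland than in lung by 1.44 ± 0.26 (adjusted p = 1.65e-05) and than in liver by 1.30 ± 0.24 (adjusted p = 1.10e-05).

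Atp5f1d, the delta subunit of the central stalk, showed the opposite order. It read 2451, 1799, 1029 and 1654 in diet mammary gland, 4164, 4693 and 4804 in lung and 5927, 5516, 5684 and 5643 in liver. Mammary gland was below liver (-1.76 ± 0.21, adjusted p = 4.33e-09) and below lung (-1.43 ± 0.23, adjusted p = 3.30e-06), with no overlap. Atp5if1, which binds ATP synthase and blocks its reverse reaction, had the largest organ difference of all members. It read 1084, 851, 1129 and 1035 in liver, 4359.5, 3949 and 5073 in lung and 6189.6, 8817, 8859 and 4882 in mammary gland, and liver lay below every other array. Mammary gland minus liver was 2.73 ± 0.21 (adjusted p = 3.52e-14) and liver minus lung -2.08 ± 0.22 (adjusted p = 3.10e-10). Of its other 3 probe sets, 2 gave 2.60 and 1.89 for mammary gland minus liver and 1 gave -0.06. All 4 have names ending in _f_at or _i_at, and whether they measure this gene alone was not tested.

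Of the remaining members, Ndufa4l2, a relative of the complex IV subunit Ndufa4 that is known to rise in hypoxia, was highest in lung. It read 1483, 1351 and 1617 in lung, 909, 621, 1258 and 800.3 in liver and 385, 351, 265 and 581 in mammary gland, with differences of -1.86 ± 0.29 for mammary gland minus lung (adjusted p = 1.96e-06) and -0.74 ± 0.29 for liver minus lung (adjusted p = 0.0278). All 5 Ndufa4l2 probe sets have names ending in _f_at or _i_at, and whether they measure this gene alone was not tested. The assembly factor Ndufaf3 was lower in liver than in lung (-0.88 ± 0.21, adjusted p = 5.09e-04).

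Probe sets of the same gene did not always agree. Of the 55 genes, 28 had several probe sets. For mammary gland minus lung, 11 of the 27 genes with at least 2 probe sets tested had probe sets of opposite sign, with a median of 0.67 for the probe sets of highest signal and 0.15 for the others. For mammary gland minus liver the figures were 11 of 26, 0.64 and 0.19, and for liver minus lung 7 of 27. The 3 probe sets of Cox4i1 gave 1.52, 0.37 and -0.29 for mammary gland minus lung, and the 2 of Atp5po gave 1.44 and -0.03. For mammary gland minus liver, Cox4i1, Cox8a, Ndufaf3 and Uqcrfs1 had probe sets that passed in opposite directions, and for mammary gland minus lung Cox8a did. With the mean of all probe sets of a gene in place of 1, the median over the members was 0.54 for mammary gland minus lung and 0.36 for mammary gland minus liver, and Ndufaf3 turned to -0.13 for mammary gland minus liver. With this mean, the calls of Atp5f1e, Cox6a1, Cox8a, Ndufb11, Ndufv3 and Uqcr11 for mammary gland minus lung were lost. For mammary gland minus liver, those of Cox4i1, Cox6a1, Cox6a2, Cox8a, Ndufab1, Ndufaf3, Ndufb11 and Ndufb5 were lost, and for liver minus lung those of Ndufv3 and Uqcr11. Sdha, Uqcrc2, Cox7b, Cox4i2, Atp5f1a and Atp5f1b have 1 probe set each, so this check could not be made for them.

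**Figure D3:**
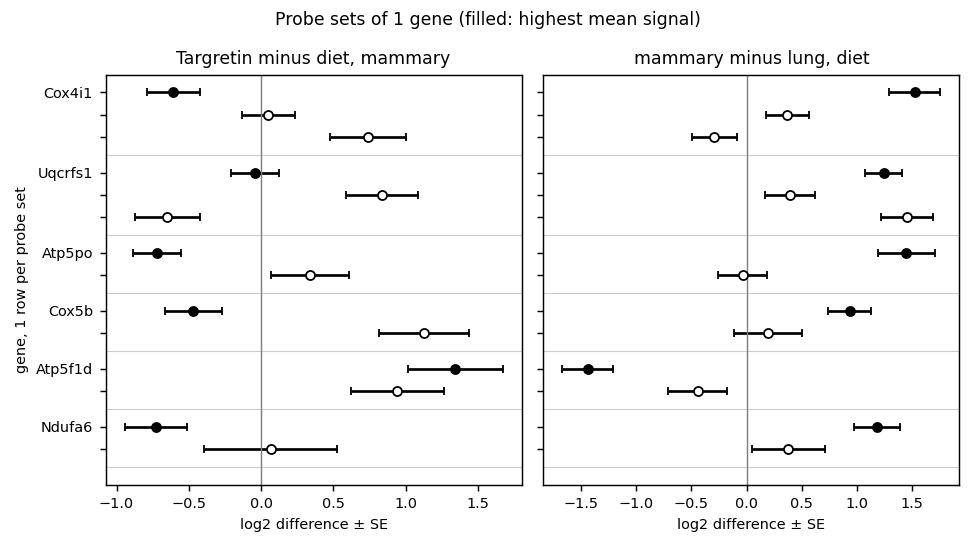
Log2 differences (± SE) of each probe set of Cox4i1, Uqcrfs1, Atp5po, Cox5b, Atp5f1d and Ndufa6, for Targretin minus diet in mammary gland and for mammary gland minus lung in diet rats; filled points are the probe sets of highest mean signal. The probe sets of Cox4i1 lie on both sides of 0 in both comparisons (-0.61, 0.05 and 0.74 for Targretin), while both probe sets of Atp5f1d lie above 0 with Targretin (1.34 and 0.94).

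With Targretin in mammary gland, 10 of the 55 genes fell and 1 rose, where 13.2% of all probe sets tested passed (7.97% higher, 5.19% lower). None of the 11 overlapped between diet and Targretin arrays, which is a description, since these genes were picked by their test on the same arrays. The share of all probe sets without overlap was not counted. The median over the members was -0.21, against 0.11 over all probe sets tested, and 23 members had an unadjusted p under 0.05. The genes that fell lie in complex I (5 of 24), complex II (Sdha), complex III (1 of 3), complex IV (2 of 12) and complex V (1 of 9), with medians of -0.22 in complex I and -0.46 in complex IV. The gene that rose was Atp5f1d. Other probe sets of the members went the other way: 15 of the 26 genes with at least 2 tested had probe sets of opposite sign, with a median of -0.33 for those of highest signal and 0.35 for the others. With the mean of all probe sets of a gene, 7 members passed and the median over the members was -0.01. The calls of Atp5po, Cox4i1, Ndufa6, Ndufab1 and Ndufb11 were lost with this mean, and those of Ndufb1, Ndufb11 and Sdha in a fit of the diet and Targretin arrays alone.

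In complex I, Ndufab1 read 7542, 5938 and 7256 on the Targretin arrays, below the 4 diet values given above, and fell by 0.70 (SE 0.18, adjusted p = 0.0225). Ndufb1, a small membrane-arm subunit, went from 5139, 4698, 6445 and 3869.6 to 2692, 2481 and 3799 and fell by 0.75 (SE 0.21, adjusted p = 0.0311), with the groups nearly touching. Ndufb3, another subunit of this arm, went from 18155, 17709.6, 18532 and 15038 to 12075, 11339.8 and 10684 and fell by 0.61 (SE 0.17, adjusted p = 0.0336). Ndufa6 went from 9033, 11023, 11941 and 9688 to 5294, 6145 and 7433 and fell by 0.73 (SE 0.21, adjusted p = 0.037). Its second probe set did not follow (0.07), whereas the other probe sets of Ndufab1 gave -0.38 and -1.15. Ndufb11, a membrane-arm subunit, went from 6415, 6882, 8928 and 7943 to 5427, 3971 and 4708 and fell by 0.68 (SE 0.21, adjusted p = 0.048). Of the other complex I genes, Ndufs4 lay just short of the threshold (-0.67 ± 0.22, adjusted p = 0.0537).

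In complexes II and III, Sdha read 9295, 6389 and 6138 with Targretin, all below the lowest diet value of 10290.2, and fell by 0.72 (SE 0.19, adjusted p = 0.0259). Uqcrc2 read 6084, 6289 and 10175, below the lowest diet value of 12057, and fell by 0.94 (SE 0.25, adjusted p = 0.0246). Uqcrfs1 did not pass at its probe set of highest signal (-0.04 ± 0.16), and its other probe sets gave 0.84 (adjusted p = 0.0375) and -0.65.

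In complex IV, Cox7b gave the smallest adjusted p of the members: it read 18770.4, 20778, 21063 and 15995 with diet and 9754, 10072 and 14064 with Targretin, and fell by 0.77 (SE 0.17, adjusted p = 0.0109). Cox4i1 read 43666, 50936 and 46080.3 with Targretin, below every diet value, and fell by 0.61 (SE 0.18, adjusted p = 0.0399), but its other probe sets gave 0.05 and 0.74, and the mean of all its probe sets gave 0.06. Ndufa4 lay just short of the threshold (-0.50 ± 0.16, adjusted p = 0.0503). Cox4i2, the lung-type counterpart of Cox4i1, showed 0.05 ± 0.26. Cox6a1 (-0.46 ± 0.18), Cox8a (-0.53 ± 0.22) and Cox6b1 (-0.09 ± 0.18) did not pass. The muscle isoforms Cox6a2 (653, 698 and 2991) and Cox8b (297, 531 and 1227) had their highest Targretin values on replicate 3, the array with the high muscle markers, and did not pass.

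In complex V, Atp5po read 33248, 41265, 32036 and 32509 with diet and 23371, 17334 and 22749 with Targretin, and fell by 0.72 (SE 0.17, adjusted p = 0.0136), while its second probe set gave 0.34. Atp5f1d read 5790.4, 4051 and 3299 with Targretin against 2451, 1799, 1029 and 1654 with diet, and rose by 1.34 (SE 0.33, adjusted p = 0.0177). The second Atp5f1d probe set gave 0.94 (adjusted p = 0.0622). The catalytic subunits Atp5f1a (-0.11 ± 0.19) and Atp5f1b (-0.16 ± 0.17) did not pass.

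**Figure D4:**
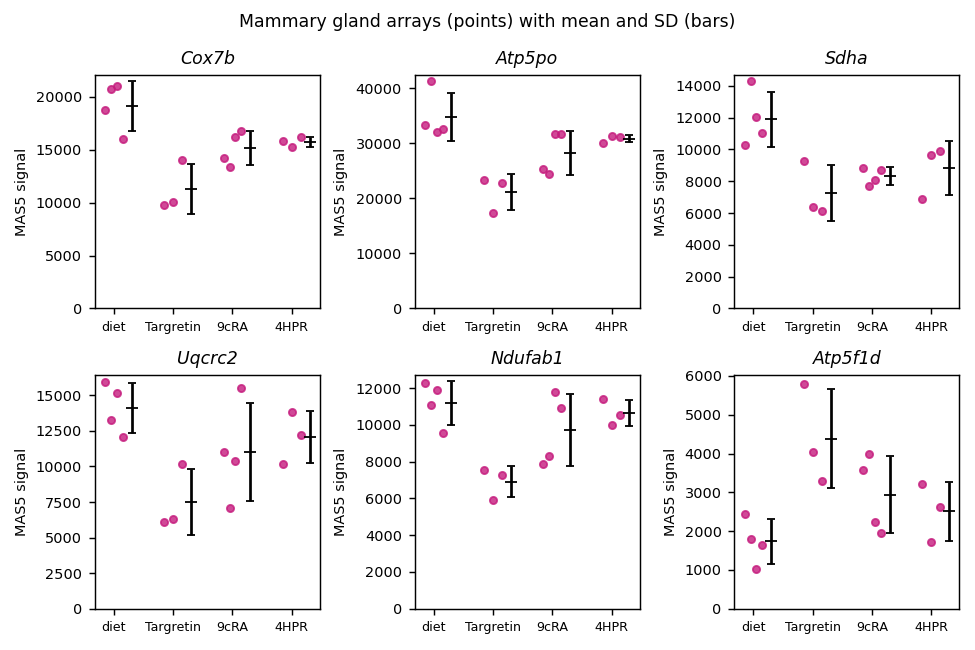
Signal of Cox7b, Atp5po, Sdha, Uqcrc2, Ndufab1 and Atp5f1d on each mammary array, by agent; points are arrays and bars are the mean ± SD. Targretin arrays lie below all diet arrays for the first 5 genes (Cox7b 9754 to 14064 against 15995 to 21063) and above them for Atp5f1d (3299 to 5790 against 1029 to 2451).

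Markers of other cell types and measures of RNA quality moved with this result. All 12 measured hepatocyte markers fell with Targretin in mammary gland (median -4.19), and their summed signal did not overlap with diet. Alb (albumin), which defines hepatocytes, read 1497 to 4725 in Targretin and 11379 to 43645 in diet mammary gland. Of 12 muscle markers tested, 1 rose. The summed signal of the mammary epithelial markers was 263070, 265210 and 384460 with Targretin and 163590, 230940, 232400 and 255170 with diet, without overlap. Of these 11 markers 0 passed, with a median of 0.62, and their part in the result was not tested. With the hepatocyte sum as a covariate 0 members passed, 14 of all probe sets did, and the median over the members was -0.35. The beta-actin 3′/5′ ratio was 3.71 to 6.21 in diet and 2.86 to 3.69 in Targretin mammary gland, and with this ratio as a covariate 0 members passed, against 6 with the GAPDH ratio. The number of all probe sets passing with these ratios is not given here. Of the 9 white adipocyte markers tested, 0 passed, with sums of 192630 to 275740 in diet and 137850 to 204580 in Targretin rats. Leaving out Targretin mammary replicate 2 left 0 members passing, diet replicate 3 left 2, diet replicate 2 left 3, Targretin replicate 1 left 5, and Targretin replicate 3, the array with muscle markers, left 7. Over the 14 fits that left out 1 mammary array, 338 to 1059 of all probe sets passed, against 796 with every array.

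With the retinoids given in the diet, no member passed in mammary gland. The hepatocyte sums of these groups were 41626 to 105520 with 9cRA and 63532 to 122240 with 4HPR. With 9cRA 0 of 55 members and 0% of all probe sets passed limma's test, and 9 members had an unadjusted p under 0.05. The smallest p was that of Sdha, which read 8836, 7683, 8054 and 8726, below the lowest diet value (-0.50 ± 0.18, adjusted p = 0.172). It was followed by Ndufs4 (-0.52 ± 0.20, adjusted p = 0.199) and Ndufa4l2 (0.87 ± 0.35, adjusted p = 0.209). With 4HPR 0 members and 0% of probe sets passed, and 1 member had an unadjusted p under 0.05. That was again Sdha, at 6856, 9631 and 9925 (-0.44 ± 0.19, adjusted p = 0.999), ahead of Ndufb8 (0.33 ± 0.18) and Ndufaf3 (0.38 ± 0.21). All 10 Sdha values under the 3 agents lay below the 4 diet values, and the 3 comparisons share these diet arrays. Atp5f1d read 3588, 3981, 2227 and 1953 with 9cRA and 3224, 1709 and 2617 with 4HPR.

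Whether the agents differed from each other was tested for each gene in mammary gland, and 0 of 55 members passed limma's F test, against 2.71% of probe sets, with 12 at an unadjusted p under 0.05. Doses and routes differ between the agents, so the differences are descriptions. Targretin minus 9cRA was -0.44 (95% interval -0.80 to -0.07) for Cox7b, -0.22 (95% interval -0.63 to 0.20) for Sdha and 0.59 (95% interval -0.10 to 1.29) for Atp5f1d.

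**Figure D5:**
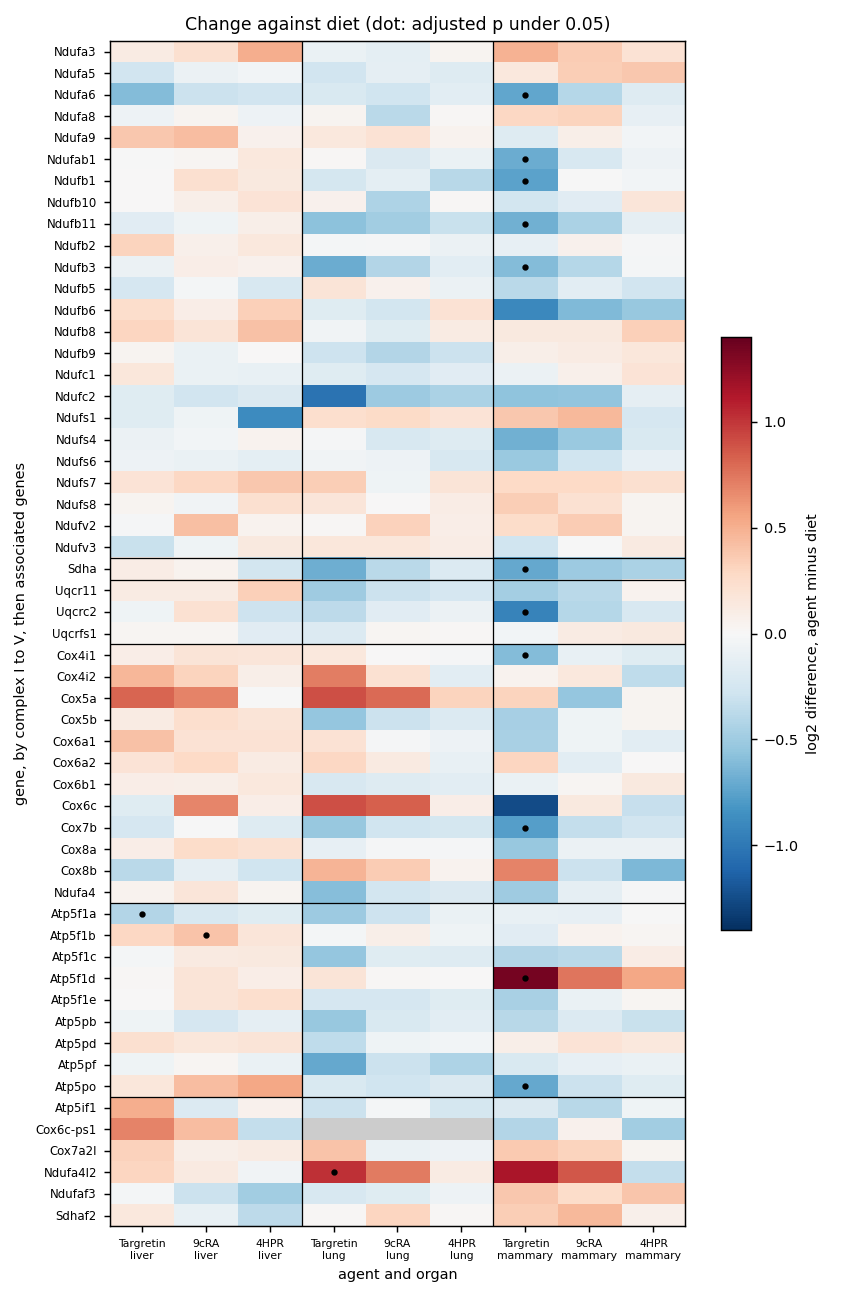
Log2 difference from diet of the 55 genes (ordered by complex) for each agent in each organ; dots mark an adjusted p under 0.05 and gray a gene not tested (Cox6c-ps1 in lung). Of the dots, 11 are in the Targretin mammary column, and Targretin liver, 9cRA liver and Targretin lung have 1 each.

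Few members passed in liver. With Targretin, 0 rose and 1 of 55 fell, where 11.2% of probe sets passed (4.89% higher, 6.28% lower). That gene was Atp5f1a, which read 7437, 8351 and 9052 with Targretin, below every diet value (11281, 10117, 10669 and 11824), and fell by 0.41 (SE 0.12, adjusted p = 0.0297). Its values were 8664, 9779.8, 9770.3 and 9255 with 9cRA and 9104, 9992, 9235 and 10538 with 4HPR. With 9cRA, 1 of 55 rose, where 5.16% of probe sets passed (2.55% higher). Atp5f1b read 32182, 32837, 35895 and 37877 with 9cRA against 25998, 24369.6, 26940.4 and 28179.8 with diet, without overlap, and rose by 0.39 (SE 0.10, adjusted p = 0.0252). It read 31255, 33103 and 32446 with Targretin (0.29 ± 0.11, adjusted p = 0.0919) and 31629, 29316, 26814 and 30523 with 4HPR. The Atp5f1a call was lost without Targretin liver replicate 1 or 2 or diet liver replicate 1, 3 or 4 (adjusted p up to 0.139), and in a fit of the diet and Targretin arrays alone, and the Atp5f1b call without 9cRA liver replicate 3 or 4 or diet liver replicate 1, 2 or 3 (adjusted p up to 0.081) and with quantile normalization. With 4HPR, 0 members passed (2.78% of probe sets, of which 1.19% higher and 1.6% lower, 6 members at an unadjusted p under 0.05), and the smallest p were those of Ndufs1 (-0.88 ± 0.25, adjusted p = 0.0695), Atp5po (0.54 ± 0.17, adjusted p = 0.109) and Ndufb8 (0.42 ± 0.15, adjusted p = 0.154). The medians over the members were 0.04, 0.09 and 0.06 for Targretin, 9cRA and 4HPR. Among the agents, 0 members passed the F test (7.08% of probe sets, 7 members at an unadjusted p under 0.05).

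The second probe set of Cox5b, a zinc-binding matrix subunit, behaved unlike the first in liver. It read 1175, 1142, 1327 and 1691 with diet, 5476, 4795 and 5635 with Targretin, 5480.2, 6194, 5392 and 3410 with 9cRA, and 4311, 4156, 4496 and 2090 with 4HPR. Its rises of 1.97 (adjusted p = 4.88e-05), 1.89 (adjusted p = 3.01e-04) and 1.43 (adjusted p = 0.00362) passed, and the groups did not overlap with diet, while the probe set of highest signal gave 0.12, 0.23 and 0.18 without passing. Other probe sets that are not the one of highest signal for their gene also passed in liver, each of them higher than diet. Including Cox5b, these belonged to 6 genes with Targretin, 8 with 9cRA and 2 with 4HPR, of 25 genes with at least 2 probe sets tested. Of all probe sets tested in liver, 4.89%, 2.55% and 1.19% passed as higher with these agents. The lower probe set of Atp5f1e, the epsilon subunit of ATP synthase, rose by 0.96 (adjusted p = 1.48e-04), 1.02 (adjusted p = 3.01e-04) and 0.78 (adjusted p = 0.00362) with the 3 agents, while its probe set of highest signal gave 0.00, 0.18 and 0.24 without passing. With both Targretin and 9cRA, such probe sets rose for Cox6c (1.46 and 1.64, adjusted p = 0.00621 and 0.00457), Cox6a1 (0.98 and 1.19, adjusted p = 0.0419 and 0.0167), Ndufs8 (0.85 and 0.84, adjusted p = 0.00765 and 0.0113) and Cox4i1 (0.52 and 0.49, adjusted p = 0.0123 and 0.0204). With 9cRA they also rose for Ndufa6 (0.82, adjusted p = 0.0266) and Cox8a (0.65, adjusted p = 0.00695). With the mean of all probe sets of a gene, 4, 5 and 2 members passed in liver with Targretin, 9cRA and 4HPR. The 3 comparisons share the diet arrays. These probe sets were chosen after their values were seen.

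In lung, Targretin raised 1 of 54 members tested, where 2.39% of probe sets passed (1.38% higher, 1.01% lower). Ndufa4l2 read 2912, 2912 and 3311 with Targretin against 1483, 1351 and 1617 with diet, without overlap, and rose by 1.02 (SE 0.21, adjusted p = 0.0311). Its other 4 probe sets gave 0.80, 0.59, 0.97 and 1.09, none of them passing. All 5 have names ending in _f_at or _i_at, and whether they measure this gene alone was not tested. Ndufa4l2 read 3437, 2406, 2048 and 2184 with 9cRA (0.72 ± 0.20, adjusted p = 0.315) and 1968, 1238, 1715 and 1591 with 4HPR. The call was lost without Targretin lung replicate 1, diet lung replicate 3 or diet lung replicate 4 (adjusted p up to 0.159), in a fit of the diet and Targretin arrays alone, and with the mean of all its probe sets. The median over the members was -0.11 (all probe sets, 0.06), with 12 at an unadjusted p under 0.05, led by Ndufc2 (-1.03 ± 0.26, adjusted p = 0.0527), Atp5pf, a peripheral stalk subunit (-0.72 ± 0.22, adjusted p = 0.0837), and Ndufb3 (-0.70 ± 0.23, adjusted p = 0.0969).

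Without Targretin lung replicate 2, 5 members passed in lung with a median of -0.25, without Targretin lung replicate 3, 6 passed, and without diet lung replicate 2, 3 passed. Without Targretin lung replicate 1 the median over the members was 0.0548. Over the 14 fits that left out 1 lung array, 0 to 439 of all probe sets passed, against 142 with every array. With 9cRA, 0 of 54 members and 0% of probe sets passed (2 members at an unadjusted p under 0.05), and Ndufa4l2, Ndufb11 (-0.48 ± 0.19) and Ndufc2 (-0.51 ± 0.25) had the smallest p. With 4HPR, 0 members and 0% of probe sets passed (1 at an unadjusted p under 0.05), and Ndufb1 (-0.39 ± 0.17), Atp5pf (-0.43 ± 0.21) and Ndufc2 (-0.44 ± 0.25) had the smallest p. Among the agents, 0 members passed the F test (0.0337% of probe sets, 2 members at an unadjusted p under 0.05).

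Whether an agent's change differed between organs was tested in a fit of all arrays. For Targretin, 2 of 54 members passed limma's F test, against 13.3% of probe sets. The difference from diet of Atp5f1d was 1.34 in mammary gland, 0.18 in lung and 0.02 in liver (adjusted p = 0.00784), a call lost without Targretin mammary replicate 1 (adjusted p = 0.0501) and with the mean of both its probe sets. That of Sdha was -0.72 in mammary gland, -0.69 in lung (adjusted p = 0.115 against diet) and 0.10 in liver (adjusted p = 0.0425 among the organs), a call lost in 11 of the 43 fits that left out 1 array (the 3 Targretin liver arrays, Targretin mammary replicates 2 and 3, and replicates 2 and 3 of diet liver and diet mammary gland and 3 and 4 of diet lung), with an adjusted p of up to 0.145. For the other 9 genes that fell or rose with Targretin in mammary gland, a difference between organs did not pass. For 9cRA and 4HPR, 0 members passed (0.372% and 0% of probe sets, 1 member each at an unadjusted p under 0.05).

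Other mitochondrial genes did not move as a block with Targretin in mammary gland. Of the 4 measured genes of electron transfer and cytochrome assembly, 2 fell: Etfdh (-0.89, adjusted p = 0.0181) and Etfa (-0.57, adjusted p = 0.025), which carry electrons from fatty acid oxidation into the respiratory chain. Of 11 genes of the tricarboxylic acid cycle and pyruvate dehydrogenase, only Idh2, mitochondrial isocitrate dehydrogenase, fell (-1.17, adjusted p = 0.007), and the median was -0.18. Of 10 carriers, uncoupling proteins and porins, 3 rose: the oxoglutarate carrier Slc25a11 (1.36, adjusted p = 0.00486), the citrate carrier Slc25a1 (1.5, adjusted p = 0.0417) and the porin Vdac1 (1.77, adjusted p = 0.0489). Of 8 antioxidant genes, catalase (Cat) fell (-1.09, adjusted p = 0.00418) and Gpx4, which reduces lipid peroxides, rose (1.86, adjusted p = 0.0198), and of 6 regulators of mitochondrial gene expression 0 passed.

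In diet rats the tricarboxylic acid cycle list also had more members higher than lower in mammary gland, with 7 higher and 2 lower of 11 against lung (median 0.74) and 6 higher and 1 lower of 11 against liver (median 0.60). The carriers were mixed, with 2 higher and 3 lower of 10 against lung and 3 higher and 5 lower of 10 against liver. Slc25a4, the muscle-type ADP/ATP carrier, was 3.67 higher in mammary gland than in liver (adjusted p = 7.01e-15). With Targretin in liver, Dlat of the pyruvate dehydrogenase complex (0.81, adjusted p = 0.0297), the carnitine carrier Slc25a20 (0.79, adjusted p = 0.0311) and the receptor gene Rxrg (0.60, adjusted p = 0.0238) rose.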

How the data were processed

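RNA of 43 rat tissue samples was measured, 1 array each, on an Affymetrix rat genome array. The authors deposited intensity values on a linear scale, made with MAS5 per the submitters' processing notes; its version is not given in the sources used here. The 2% trimmed mean was 1500 on every array, so no further scaling was applied. Of 8799 probe sets, 59 controls were left out; of the 8740 kept, 7006 had 1 gene symbol, 308 several and 1426 none. The 6 probe sets that name several oxidative phosphorylation genes were left out of the members. All 55 members matched RefSeq.

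Signals were analysed as log2(signal + 38.1), the pseudocount being the 10th percentile over the table. Probe sets were tested where they exceeded the array's 40th percentile on at least 3 arrays of an organ. Each organ was fitted with all 4 groups in limma 3.58.1 (R 4.3.3; lmFit, eBayes with trend), and organ and among-organ contrasts came from 1 fit of 43 arrays with 12 group means. Benjamini-Hochberg adjustment ran over all probe sets tested, with a threshold of 0.05. The fold differences of genes with low signals are understated on this scale. The number of arrays limits the precision.

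Named genes are the members that passed in an agent comparison, the 6 largest each way between organs, the 3 smallest p where none passed, cytochrome oxidase isoforms, Sdha, the 2 genes of highest signal per complex, and up to 4 passing genes of each other list. Members and lists were chosen with earlier results of these data known. Between arrays with the same replicate number, the median correlation of residuals was 0.0128 in mammary gland, 0.0252 in lung and -0.0024 in liver. Between organs of 1 agent it was 0.0605, and 14 of 41 pairs were above 0.1, with a highest value of 0.321. Within organs, 3 of 18 pairs in mammary gland, 6 of 18 in lung and 0 of 21 in liver were above 0.1. The labels do not say whether such arrays share an animal, and they were not paired. The other settings tried were a larger pseudocount, no level filter, quantile normalization, a replicate block, array quality weights, only the groups compared, the mean of all probe sets of a gene, the level filter in both organs and leaving out each array. Leaving out 3 arrays together and the covariates were chosen after seeing the data. No 2 arrays were alike enough to be 1 sample (highest correlation 0.9757).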

Additional observations from a re-analysis of the deposited data

Results flagged for a closer look

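For named genes, the 3′/5′ ratios and 2 marker sums, each group of 4 arrays was searched for an array far from the other 3. Of these 126 sets of 4 values, 6 held such an array, and chance alone gives about 1 in 20. The sets share arrays, so they are not independent. Groups of 3 arrays, among them every Targretin group, were not examined. Atp5po read 33087 on 4HPR liver replicate 4, against 16804 to 17897 on the other 3, and 41265 on diet mammary replicate 2, against 32036 to 33248. On 4HPR liver replicate 4, the 3′/5′ ratio of beta-actin was 2.96 (others 1.33 to 1.44) and that of GAPDH 2.27 (others 1.16 to 1.22). The hepatocyte marker sum was 144600 on 4HPR lung replicate 3 (others 26220 to 39850) and 72210 on diet mammary replicate 4 (others 111600 to 119100).

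The change with Targretin differed between organs for Atp5f1d (adjusted p = 0.00784) and Sdha (adjusted p = 0.0425), by limma's test of the difference itself. These were 2 of 54 members tested, against 13.3% of all probe sets. The Sdha call was lost with quantile normalization, a replicate block, no level filter, or 3 arrays left out together. That of Atp5f1d was lost with the mean of all probe sets of a gene.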

How the results depend on the processing

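Counts below are members passing. The number of all probe sets passing can change with the fit too, so a changed count is not a result about the members alone. In the fits other than those leaving out 1 array, counts not named stayed within 1.5 times of the reported ones. With a replicate block, Targretin gave 7 in mammary gland, 0 in lung and 0 in liver, 9cRA gave 0 in liver, and 1 differed among organs for Targretin. The calls lost with the block were Atp5f1a and Atp5f1b in liver, Ndufa4l2 in lung, Cox4i1, Ndufb11, Ndufb3 and Sdha in mammary gland, Sdha among organs, Ndufc2 and Ndufv2 (liver and lung), Ndufb1 (mammary gland and lung) and Cox6a2 (mammary gland and liver). With quantile normalization, Targretin gave 2 and 9cRA 0 in liver. Without a filter on low values 1 differed among organs for Targretin, and a pseudocount 4 times larger gave 2 for Targretin in lung. With only the groups compared, Targretin gave 2 in liver (Cox6a1 and Ndufa6, without Atp5f1a) and 0 in lung, and 9cRA 2 in liver (Atp5f1b and Atp5po). Array quality weights gave 2, 2 and 1 for Targretin, 9cRA and 4HPR in liver, 8, 4 and 2 in lung, 18 for Targretin and 9 among the agents in mammary gland, and 10, 2 and 1 for the 3 agents among organs.

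With the mean of all probe sets of a gene, Targretin gave 4, 9cRA 5 and 4HPR 2 in liver, Targretin 0 in lung and 7 in mammary gland, and 1 among organs (Atp5f1d lost). The median over the members became -0.00864 for Targretin and 0.0749 for 9cRA in mammary gland, 0.54 for mammary gland minus lung and 0.36 for mammary gland minus liver, and Cox4i1 with Targretin in mammary gland (0.0599) and Ndufaf3 for mammary gland minus liver (-0.13) changed sign. Without 4HPR liver replicate 4, Targretin lung replicate 2 and Targretin mammary replicate 3 together, Targretin gave 3 in liver, 5 in lung (median -0.25), 7 in mammary gland (median -0.32) and 4 among organs, 9cRA 2 in liver and 1 among organs, and 4HPR 1 in liver.

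With the beta-actin ratio as a covariate, Targretin gave 4 in liver, 5 in lung (median -0.28) and 0 in mammary gland, 9cRA 2 and 4HPR 1 in liver. With the GAPDH ratio, Targretin gave 4, 3 and 6 in these organs and 9cRA 2 in liver. With the hepatocyte marker sum, Targretin gave 3 in lung and 0 in mammary gland (median -0.35).

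Leaving out 1 array at a time gave 0 to 3 members for Targretin, 0 to 2 for 9cRA and 0 to 1 for 4HPR in liver, 0 to 6 for Targretin in lung, 0 to 13 for Targretin in mammary gland, 0 to 1 among the agents in each organ and 1 to 5 among organs for Targretin. The organ comparisons gave 16 to 24 members (liver and lung), 35 to 41 (mammary gland and lung) and 34 to 40 (mammary gland and liver). Of all probe sets, 3353 to 3793, 2516 to 3000 and 3735 to 4051 passed in these comparisons. The medians over the members ranged from 0.01 to 0.08, 0.06 to 0.14 and -0.02 to 0.10 for Targretin, 9cRA and 4HPR in liver, from -0.25 to 0.0548, -0.16 to -0.10 and -0.14 to -0.04 in lung, and from -0.41 to -0.13, -0.19 to 0.0318 and -0.05 to 0.02 in mammary gland. Cox7b and Atp5po lost their call with Targretin in mammary gland only without Targretin replicate 2 (adjusted p = 0.0543 and 0.0699), and Atp5f1d lost it in 3 of 14 such fits. Cox4i1 and Ndufb11 lost theirs in 9 of the 14, Ndufa6 and Ndufb3 in 5, and Ndufab1, Ndufb1, Sdha and Uqcrc2 in 4.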

Other observations

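Of the 6 probe sets that name several oxidative phosphorylation genes at once, 3 passed with Targretin in mammary gland. That shared by Cox7a2 and Cox7a2l2 fell by 0.68 (adjusted p = 0.0206) and that shared by Ndufb4 and Ndufb4l4 fell by 0.67 (adjusted p = 0.0225). The probe set shared by Atp5mc2 and Atp5mc2l1, which names genes of the membrane ring of ATP synthase, rose by 1.02 (adjusted p = 0.0198). The others did not pass: that shared by Atp5mc1 and Atp5mc1l1 gave 0.64 (adjusted p = 0.113), that of Ndufs5 and Ndufs5-ps2 -0.42 (adjusted p = 0.168) and that of Cox5a and LOC100361008 -0.38 (adjusted p = 0.203).

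Within groups, the members varied together from array to array. The median correlation of residuals between pairs of members was 0.242 over 15 liver arrays, 0.232 over 14 lung arrays and 0.14 over 14 mammary arrays. Over all probe sets tested it was 0.0139, 0.00485 and 0.00475. Pairs share arrays, RNA and scaling, so these values are descriptions. The median signal of the members lay at percentile 87.77 to 94.16 of an array. Probe sets of like signal were not compared, so the contrast may not be particular to these genes.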
